A study of Vuilleminia comedens with 3 samples.

Results

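Oxalate, formate and glyoxylate enzymes of Vuilleminia comedens, a crust-forming basidiomycete that decays the wood of broadleaved trees, were examined by RNA sequencing of mycelium growing in beech. Transcripts were chosen by the product name of their best database match, which had to contain oxalate decarboxylase, formate dehydrogenase, isocitrate lyase, malate synthase, oxaloacetate acetylhydrolase or glyoxylate. Names containing isopropylmalate were set aside. The names matched 40 of 81106 assembled transcripts, which belonged to 38 assembler genes. The 3 leading members were the most abundant oxalate decarboxylase (TRINITY_DN26863_c0_g1_i1) and formate dehydrogenase (TRINITY_DN24004_c0_g1_i1), and an isocitrate lyase (TRINITY_DN25893_c0_g1_i1). That isocitrate lyase was first of its class by mean RPKM but not by reads. The levels that put the members first are given as a description. A product name is that of a matched entry in another fungus, so it is no measured activity in V. comedens.

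There was 1 group of 3 libraries, described in the labels as independent biological replicates. Strain VcWVJH1 was given about 8 weeks to colonise autoclaved beech blocks of 2 cm3, on plates holding 0.5% malt extract. After the outer mycelium had been scraped off, blocks carrying that same strain were paired on perlite for 7 days at 20 °C, with an elastic band for the first 3 days, and the contact-side wood was ground for RNA. All libraries therefore share 1 strain, 1 wood and a self-pairing, with no unpaired or other control, so levels can be compared between transcripts and between libraries but not between conditions.

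Oxalate decarboxylase splits oxalate into formate and carbon dioxide, and formate dehydrogenase oxidises formate to carbon dioxide while reducing NAD. Isocitrate lyase forms glyoxylate and succinate, and malate synthase joins glyoxylate with acetyl-CoA to form malate. Together the latter pair make up the bypass known as the glyoxylate cycle. Oxalate can be made from oxaloacetate by oxaloacetate acetylhydrolase or from glyoxylate by glyoxylate dehydrogenase. White-rot basidiomycetes are known to secrete oxalate, which chelates the manganese ions produced by manganese peroxidase.

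The count columns carried no names and are called libraries A, B and C, marked (A), (B) and (C) after their values, with totals from 64236917 to 111754018 counts. In each, 67.0% to 70.1% of the counts fell on 2 transcripts that are not on the word list, and 19747416 to 33450738 counts remained outside them. Levels are given as RPKM, reads per kilobase of transcript per 1000000 counts of the library, so that transcripts of different length can be compared. Errors are SDs over the 3 libraries. In such wood samples, fewer fungal cells and less RNA per cell cannot be told apart.

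The 40 transcripts were very uneven in level. They held 437419 reads, of which the 3 leading members took 74.6% and the 11 transcripts with at least 100 reads took 99.9%. The leading oxalate decarboxylase and formate dehydrogenase alone took 73.4%. The other 29 transcripts together had 572 reads. Of the counts outside the 2 dominant transcripts, the word list took 0.433% in library A, with an exact 95% Clopper-Pearson interval of 0.431 to 0.435. For library B the share was 0.638%, with an interval of 0.635 to 0.642, and for library C 0.755%, with an interval of 0.751 to 0.759. The share was thus lowest in library A and highest in library C, and the intervals, which cover counting error only, did not overlap. They treat reads as independent and would be wider if mates were counted separately. Transcripts in general also differed between libraries beyond sampling noise, with a median chi-square per transcript of 3.48 to 3.54.

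**Figure D1:**
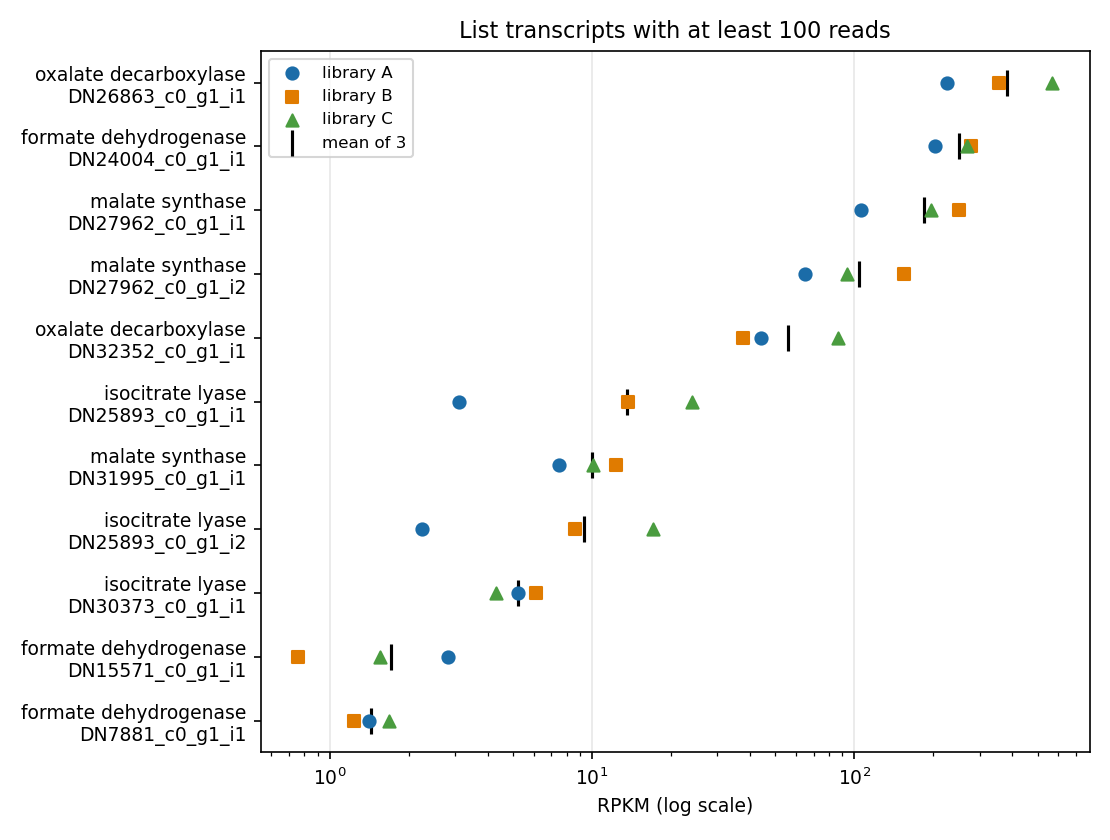
Level of the 11 transcripts with at least 100 reads, 1 row each, in RPKM on a log axis. Symbols are libraries A, B and C and the vertical bar is their mean. The first 5 rows had the same order in every library, and the isocitrate lyase isoforms of DN25893 were spread widest, from 3.10 to 24.1 RPKM for i1.

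Oxalate decarboxylase, the oxalate-removing enzyme, gave the highest transcript of the word list. TRINITY_DN26863_c0_g1_i1, of 1633 bases, had 40988 counts (A), 39565 (B) and 59487 (C). Its level was 225 RPKM (A), 356 (B) and 567 (C), a mean of 382 ± 173 (SD, n = 3). Library A was lowest and library C highest, and counting alone would give an SD of 1.81 RPKM, or 2.56 if both mates of every read pair were counted. By mean RPKM it stood in place 56 among all 81106 transcripts and in place 37 among the 22605 with a database match. Its place was 138 (A), 64 (B) and 29 (C). The best match was an oxalate decarboxylase of Trametes versicolor, a white-rot polypore.

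A second oxalate decarboxylase transcript was much shorter. TRINITY_DN32352_c0_g1_i1, of 391 bases, matched PUNSTDRAFT_146733 of Punctularia strigosozonata, a relative of V. comedens in the order Corticiales. It had 44.2 RPKM (A), 37.8 (B) and 86.3 (C), a mean of 56.1 ± 26.4 (SD, n = 3). Its level was 0.197 times that of the leading member (A), 0.106 times (B) and 0.152 times (C). Both were highest in library C, but the short one was lowest in library B and the leading one in library A. Another 3 transcripts matched the same P. strigosozonata entry and had 25 to 86 reads each, so whether the short transcript is part of another gene or of the same one was not tested. Of the 13 oxalate decarboxylase transcripts, 11 had under 100 reads.

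Formate dehydrogenase was represented almost wholly by its leading member, which held 99.7% of the reads of its 11 transcripts. TRINITY_DN24004_c0_g1_i1, of 3065 bases, had 69633 counts (A), 58090 (B) and 53085 (C). That was 203 RPKM (A), 278 (B) and 270 (C), a mean of 250 ± 41.0 (SD, n = 3). Libraries B and C lay close together and library A lower. It stood in place 116 among all transcripts, and between places 102 and 168 in the single libraries. Its best match was an NAD-dependent formate dehydrogenase of T. versicolor. The 2 other formate dehydrogenase transcripts with at least 100 reads were fragments of 270 and 297 bases. TRINITY_DN15571_c0_g1_i1 had 1.71 RPKM ± 1.04 (SD, n = 3), and TRINITY_DN7881_c0_g1_i1 had 1.44 ± 0.222 (SD, n = 3).

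Isocitrate lyase, the entry enzyme of the glyoxylate cycle, was far lower and varied most between blocks among the 3 leading members. TRINITY_DN25893_c0_g1_i1, of 1868 bases, had 648 counts (A), 1747 (B) and 2887 (C). Its level was 3.10 RPKM (A), 13.7 (B) and 24.1 (C), a mean of 13.6 ± 10.5 (SD, n = 3), or 8.41 without library C. The counting SD was 0.328 RPKM, or 0.464 if mates were counted separately. Library C exceeded library A by 7.75-fold, and by 7.55-fold to 8.26-fold under the other library scalings. Its place among all transcripts was 7826 (A), 2650 (B) and 1661 (C).

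The same assembler gene held a second isoform of nearly the same length. TRINITY_DN25893_c0_g1_i2, of 1827 bases, had 2.25 RPKM (A), 8.65 (B) and 17.1 (C). Its level relative to the first isoform stayed between 0.630 and 0.724 in the 3 libraries. No source used here states how reads that both isoforms could take were assigned, so the 2 isoforms are no independent measurements. With the reads of this assembler gene summed, the mean isocitrate lyase level was 22.8 RPKM.

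Another isocitrate lyase transcript did not follow this pattern. TRINITY_DN30373_c0_g1_i1, of 5742 bases, matched PUNSTDRAFT_56739 of P. strigosozonata and had 5.24 RPKM (A), 6.14 (B) and 4.31 (C). Its mean was 5.23 ± 0.911 (SD, n = 3), and its highest and lowest libraries differed 1.42-fold. By RPKM it lay above the leading isocitrate lyase in library A and below it in libraries B and C. The order in library B rests on the length scaling, since there it had 2401 counts against 1747. An isoform of the same assembler gene with no database match, TRINITY_DN30373_c0_g1_i2, had 1.32 RPKM ± 0.385 (SD, n = 3). Although the leading member was first by RPKM, the longer transcript took more reads, 45.3% of those of the 8 isocitrate lyase transcripts.

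Malate synthase, which uses the glyoxylate that isocitrate lyase forms, was well above isocitrate lyase. TRINITY_DN27962_c0_g1_i1, of 1769 bases, matched PUNSTDRAFT_50403 of P. strigosozonata and had 106 RPKM (A), 252 (B) and 196 (C). Its mean was 185 ± 73.6 (SD, n = 3), with library A lowest and library B highest. The shorter isoform TRINITY_DN27962_c0_g1_i2, of 839 bases, had 65.0 RPKM (A), 154 (B) and 94.0 (C). A fragment of 408 bases matched to Stereum hirsutum, TRINITY_DN31995_c0_g1_i1, had 9.97 RPKM ± 2.46 (SD, n = 3) and was also lowest in library A and highest in library B. The malate synthase class was thus lowest in library A, as isocitrate lyase was, but highest in library B rather than library C.

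Product names of oxalate-forming enzymes had few reads or none. No matched entry was named oxaloacetate acetylhydrolase. Glyoxylate dehydrogenase was the product name of 3 fragments of 252 to 315 bases, all matched to T. versicolor, with 5 to 14 reads each. They summed to 0.772 RPKM in library A and 0.247 in library C, and had 0 counts in library B. The floor of 3 counts corresponded to 0.0268 to 0.0467 CPM (counts per 1000000 counts of the library), so a transcript with 0 counts may be present below that level. Matching by name cannot show that V. comedens lacks these transcripts, since 58501 of the 81106 transcripts had no database match.

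**Figure D2:**
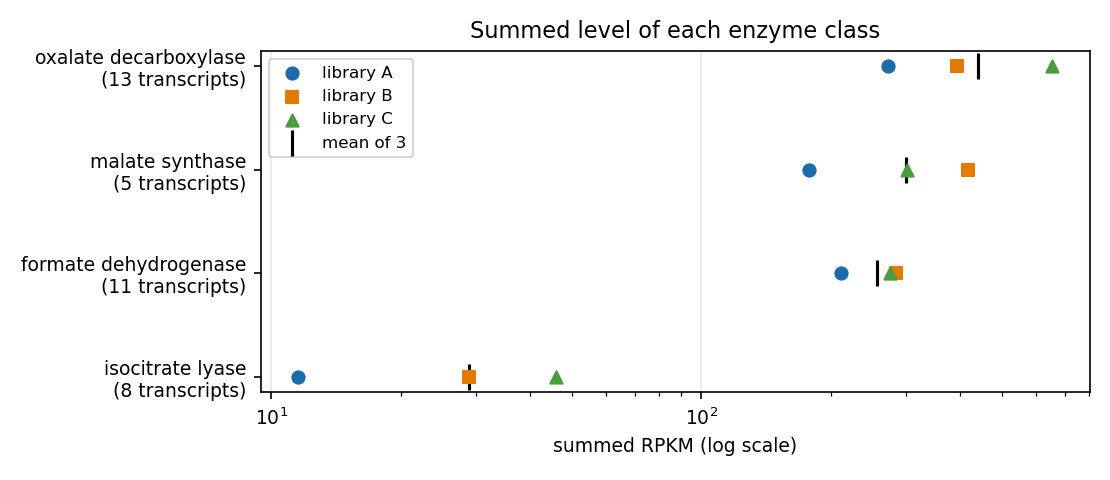
Summed RPKM of the 4 enzyme classes with transcripts of at least 100 reads, on a log axis, with 1 symbol per library and a bar for the mean. Isocitrate lyase, at 11.6 to 46.1, lies below the other 3 classes in every library.

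Summed by class, oxalate decarboxylase had 440 RPKM ± 196 (SD, n = 3), malate synthase 299 ± 120 (SD, n = 3) and formate dehydrogenase 257 ± 39.5 (SD, n = 3). Isocitrate lyase had 28.8 ± 17.2 (SD, n = 3). The ranges of the first 3 classes over the libraries overlapped, and that of isocitrate lyase overlapped with none of them. Malate synthase exceeded isocitrate lyase 15.4-fold (A), 14.5-fold (B) and 6.52-fold (C), a mean of 12.2 ± 4.91 (SD, n = 3). Without division by length the mean ratio was 5.96. These sums count isoforms of the same assembler gene separately.

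Ratios between the leading members were taken within each library. Oxalate decarboxylase was 1.10 times formate dehydrogenase (A), 1.28 times (B) and 2.10 times (C), a mean of 1.50 ± 0.533 (SD, n = 3). This order held in 3 of 3 libraries in RPKM, but it rests on the length scaling, because in reads not divided by length the ratio was 0.589 (A), 0.681 (B) and 1.12 (C), a mean of 0.797. Oxalate decarboxylase exceeded isocitrate lyase 72.4-fold (A), 25.9-fold (B) and 23.6-fold (C). Formate dehydrogenase exceeded it 65.5-fold (A), 20.3-fold (B) and 11.2-fold (C). These last 2 ratios leaned on library A, where isocitrate lyase was lowest, with means of 40.6 and 32.3 over the 3 libraries and 24.7 and 15.7 without library A. With the reads of each assembler gene summed, the means were 24.1 and 19.2. In reads not divided by length, the mean of formate dehydrogenase over isocitrate lyase was 53.0. With 3 libraries and members chosen for abundance, no test was made.

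Over the 11 transcripts with at least 100 reads, the order by RPKM began with oxalate decarboxylase, formate dehydrogenase, both malate synthase isoforms and the short oxalate decarboxylase. These 5 kept that order in every library. Each neighbour in that order nevertheless overlapped the next in its range over the libraries, so the order is firmer within a library than between libraries. Below them the order changed from library to library. The leading isocitrate lyase was in place 8 in library A and in place 6 in libraries B and C.

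**Figure D3:**
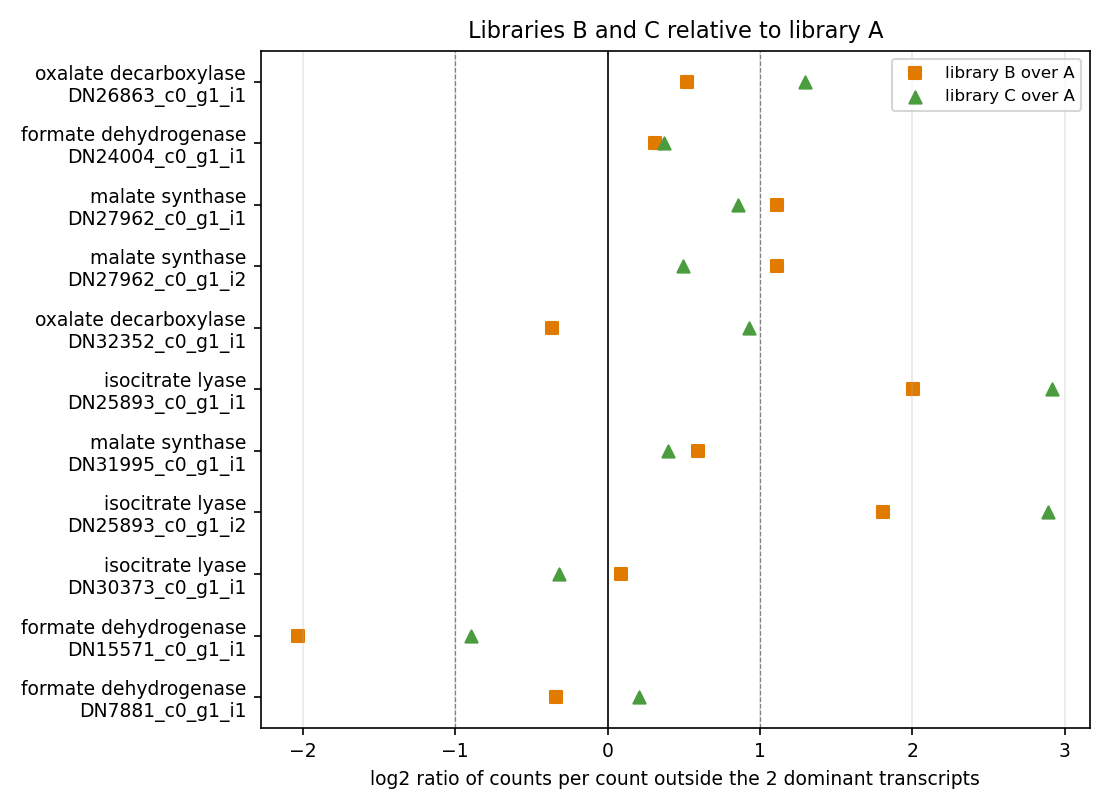
Log2 ratio of libraries B and C to library A for the same 11 transcripts, after scaling to the counts outside the 2 dominant transcripts. Dashed lines mark a 2-fold difference. Both isocitrate lyase isoforms of DN25893 lie farthest right, at 2.92 and 2.89 for library C, and the formate dehydrogenase DN24004 stays within 0.37 of 0.

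The spread between the blocks was then set beside that of all transcripts, with counts scaled to those outside the 2 dominant transcripts. Of the 13 list transcripts that reached 10 reads in every library, 8 differed over 2-fold between the highest and lowest library, against 24.4% of all 31168 transcripts passing the same filter. The median of that fold was 2.16 in the list and 1.56 overall. Among transcripts with at least 1000 reads, a limit added after the data were seen, 6 of 8 list transcripts differed over 2-fold, against 11.3% of 7974. The count of 8 was 4 without library A, 3 without library B and 6 without library C. Leaving out a library can only keep or lower such a count. The matching shares over all transcripts were not computed, so these counts do not show which library drove the spread. These transcripts include isoform pairs that may share reads, so the counts are not of independent genes.

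By member, the spread differed widely. The highest library exceeded the lowest 7.55-fold for the leading isocitrate lyase, and 99.3% of the 7974 well-covered transcripts had a smaller fold. It was 2.46-fold for the leading oxalate decarboxylase, with 94.1% of those transcripts below it. For the leading formate dehydrogenase it was 1.29-fold, with 35.3% below it. Of the 7 transcripts with at least 100 reads that passed 2-fold, 5 were lowest in library A and 2 in library B. Library C was highest for 4 of the 7, library B for 2 and library A for 1. The 5 lowest in library A include both isoforms of DN25893 and both of DN27962, which may share reads, so they are not 5 separate genes. How often each library was highest or lowest over all transcripts was not computed. The formate dehydrogenase transcript thus had the smallest fold of the 3 leading members and the isocitrate lyase transcript the largest.

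**Figure D4:**
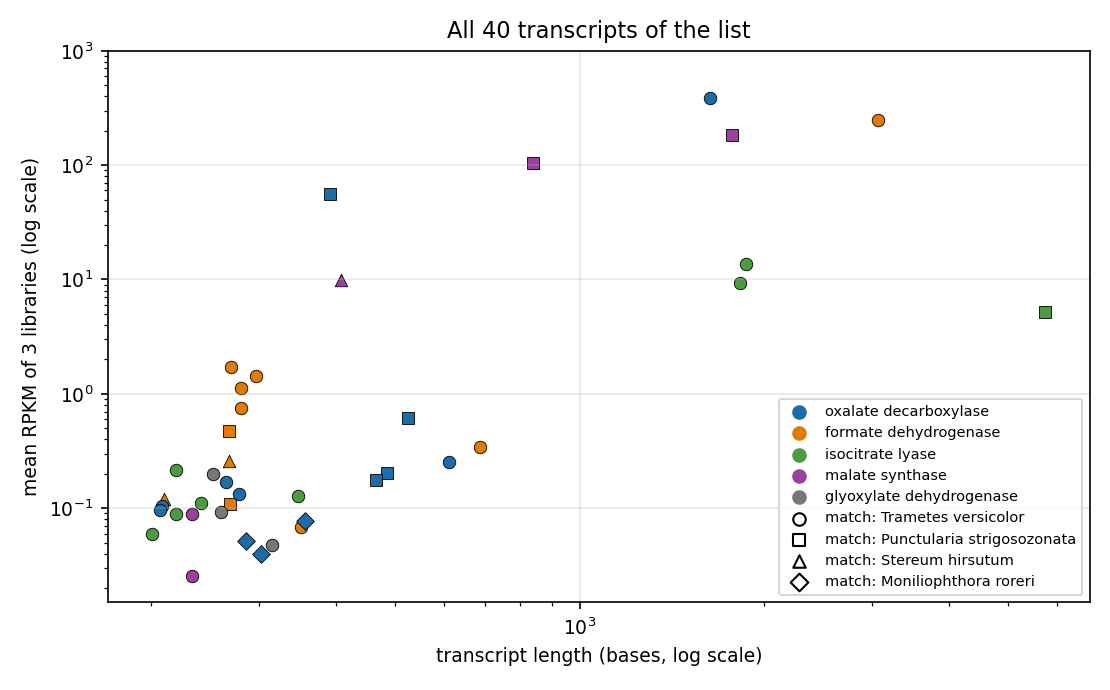
Mean RPKM of the 3 libraries against transcript length for all 40 transcripts, both on log axes, coloured by enzyme class and shaped by the species of the best match. The 29 transcripts with under 100 reads are 201 to 688 bases long and lie at the lower left.

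The 29 sparsely read transcripts were short, from 201 to 688 bases with a median of 269, and 19 of them matched T. versicolor. They had 362 reads (A), 99 (B) and 111 (C), and 10 of the 29 had reads in library A alone. Libraries B and C had 0 counts for 4006 of all 22605 annotated transcripts and 3888 of all 11569 matched to T. versicolor. Those sets are not limited to sparse transcripts, and these counts take in any transcript with no reads in library A either. Library A also had the most counts in total. Of the 8 sparse transcripts with at least 20 reads, 0 had over 90% of their summed CPM in library A. With the same read minimum, that share was 2.82% of 15147 annotated transcripts and 8.21% of 5064 matched to T. versicolor. A count of 0 among 8 cannot be told apart from those shares. For the 29 together, library A held 50.5% of the summed CPM over the 3 libraries, against 33.5% for all annotated transcripts. It held 19.6% for the leading oxalate decarboxylase, 27.1% for formate dehydrogenase and 7.59% for isocitrate lyase. The 3 leading members also had T. versicolor entries as best match. The share of reads that came from another fungus was not tested.

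Transcripts with neighbouring roles were summed from word lists in the same way. Malate dehydrogenase, which turns malate into oxaloacetate, summed to 649 RPKM ± 84.9 (SD, n = 3) over 25 transcripts, of which 14 reached 500 bases. Aconitase, which makes isocitrate, had 59.5 ± 6.70 (SD, n = 3), nearly all of it from TRINITY_DN26112_c0_g1_i1 at 52.8 ± 4.98 (SD, n = 3). Citrate synthase had 30.5 ± 1.49 (SD, n = 3), a list that also took in 2 homocitrate synthases. Isocitrate dehydrogenase, which draws on the same substrate as isocitrate lyase, had 21.5 ± 3.98 (SD, n = 3), and its range over the libraries, 17.9 to 25.8, overlapped that of the isocitrate lyase class. These 4 lists differed between the highest and lowest library by 1.10-fold to 1.44-fold, against 3.98-fold for isocitrate lyase and 2.34-fold for malate synthase in RPKM. Such sums can hide single transcripts. The malate dehydrogenase TRINITY_DN25882_c0_g1_i1 differed 2.76-fold, while the isocitrate lyase TRINITY_DN30373_c0_g1_i1 differed only 1.42-fold. In reads not divided by length, the isocitrate lyase class differed 2.51-fold and the malate dehydrogenase list 1.78-fold.

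Among enzymes that supply or use the substrates, pyruvate carboxylase, which makes oxaloacetate, had 24.8 RPKM ± 2.19 (SD, n = 3). Acetyl-CoA synthetase-like proteins, a broad family of acyl-activating enzymes, summed to 179 ± 29.4 (SD, n = 3) over 80 transcripts. Glyoxal oxidase, a copper radical enzyme that forms hydrogen peroxide, had 400 ± 98.5 (SD, n = 3), and its 3 highest transcripts are isoforms of 1 assembler gene. The list for formate and one-carbon units had 110 ± 16.8 (SD, n = 3). It was led by 2 isoforms named Acetamidase/Formamidase, TRINITY_DN25700_c0_g2_i1 and TRINITY_DN25700_c0_g2_i2, at 56.9 ± 13.1 and 30.4 ± 3.60 (SD, n = 3). Formamidase releases formate from formamide, but the name covers acetamidases too, and which activity the product has was not tested. Peroxisome-named products, from the organelle that houses much of the glyoxylate cycle in many fungi, had 32.5 ± 4.21 (SD, n = 3).

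The 2 highest transcripts by RPKM with at least 100 reads of each neighbouring list were as follows. Malate dehydrogenase was led by isoforms of the NAD-dependent form, TRINITY_DN29822_c2_g4_i1 and TRINITY_DN29822_c2_g4_i5, at 177 RPKM ± 21.8 and 143 ± 9.58 (SD, n = 3), the first only 285 bases long. The transcript with the highest read count of that list was TRINITY_DN25882_c0_g1_i1, of 2537 bases, which held 48.0% of the list's reads and was named after its values were seen. It had 74.9 RPKM (A), 206 (B) and 85.2 (C), highest in library B. After its leading transcript, aconitase had TRINITY_DN29552_c0_g2_i1 at 3.05 ± 0.869 (SD, n = 3). Citrate synthase had TRINITY_DN26916_c0_g1_i1 at 15.2 ± 1.92 and TRINITY_DN29205_c0_g1_i1 at 12.5 ± 1.59 (SD, n = 3). These levels were near that of the leading isocitrate lyase but with a much smaller SD. Isocitrate dehydrogenase had TRINITY_DN28390_c0_g1_i1 at 15.8 ± 3.27 and its isoform TRINITY_DN28390_c0_g1_i2 at 5.69 ± 1.05 (SD, n = 3). Pyruvate carboxylase had TRINITY_DN27854_c1_g1_i1 at 23.3 ± 3.27 (SD, n = 3), while the fragment TRINITY_DN14392_c0_g1_i1 had 1.47 RPKM (A), 0.125 (B) and 0.0887 (C). That fragment was read mainly in library A, unlike the leading members described above. Acetyl-CoA synthetase-like proteins had TRINITY_DN27772_c0_g1_i1 at 34.1 ± 6.63 and TRINITY_DN23670_c0_g1_i2 at 17.1 ± 3.44 (SD, n = 3). Glyoxal oxidase had TRINITY_DN29123_c1_g1_i1 at 166 ± 60.3 and TRINITY_DN29123_c1_g1_i3 at 119 ± 18.2 (SD, n = 3). The peroxisome list had TRINITY_DN18651_c0_g1_i1 at 9.43 ± 1.76 and TRINITY_DN18174_c0_g1_i1 at 7.34 ± 0.699 (SD, n = 3). Among cupins, TRINITY_DN18230_c0_g1_i1 had 1.56 ± 0.441, and among phosphoglycolate phosphatases, TRINITY_DN26637_c0_g1_i2 had 1.96 ± 0.237 (SD, n = 3).

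Several neighbouring lists were near the bottom of the range. Phosphoenolpyruvate carboxykinase and fructose-1,6-bisphosphatase, enzymes of gluconeogenesis, were named for 5 fragments, 0 of which had 100 reads, and summed to 1.23 RPKM ± 0.758 (SD, n = 3). Cupins, the fold family of oxalate decarboxylase and oxalate oxidase, had 1.64 ± 0.508 (SD, n = 3) under that name. The list for glycolate and hydroxyacid oxidases held only 3 transcripts named 2-phosphoglycolate phosphatase, at 2.14 ± 0.258 (SD, n = 3). No entry was named for oxalyl-CoA or formyl-CoA enzymes.

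**Figure D5:**
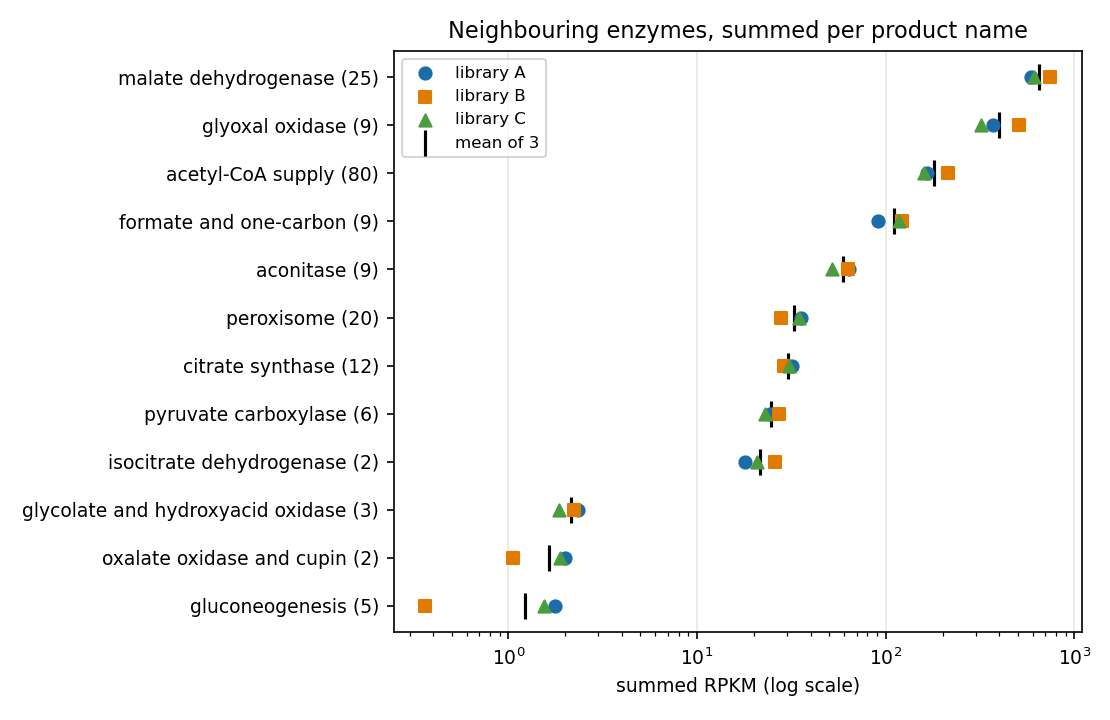
Summed RPKM of the 12 neighbouring word lists that had transcripts, on a log axis, with the number of transcripts in parentheses, 1 symbol per library and a bar for the mean. Malate dehydrogenase is highest at 592 to 747 and the gluconeogenesis names lowest at 0.361 to 1.78.

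Transcripts with a level pattern most like each leading member were found as those with the smallest Euclidean distance of log2(RPKM + 0.1) over the 3 libraries, among 6914 candidates with a product name and at least 100 reads. The nearest to oxalate decarboxylase was TRINITY_DN12044_c0_g1_i1, a 60S ribosomal protein, with 244 RPKM (A), 343 (B) and 556 (C), at a distance of 0.13. The next 3, a nucleic acid-binding protein, profilin and an aldehyde dehydrogenase, lay at 0.71 to 0.81. The nearest to formate dehydrogenase was the glutathione S-transferase TRINITY_DN25272_c0_g2_i1 at 0.11, followed by its isoform at 0.19 and by ribosomal proteins S8e and cyc07 at 0.23 and 0.27. For isocitrate lyase, its own second isoform lay at 0.94. Next were 2 transcripts named acyl-CoA dehydrogenase, the first enzyme of beta-oxidation, TRINITY_DN29657_c1_g5_i1 at 1.07 and TRINITY_DN18505_c0_g1_i1 at 1.10. The first, of only 230 bases, had 4.82 RPKM (A), 7.91 (B) and 18.5 (C). The second, of 571 bases, had 5.48 (A), 8.25 (B) and 21.2 (C). The distance takes in level as well as change between libraries. The fourth was 60S ribosomal protein L31 at 1.33. With 3 libraries, such a likeness describes these blocks and carries no test.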

How the data were processed

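The deposited table gives transcript lengths and raw read counts in 3 columns. The tools listed, per the submitters' processing notes and with no role stated, are SAMtools 0.1.19, Bowtie2 2.2.6 and cutadapt 1.2.1. Transcript identifiers carry Trinity's naming, while no source used here states its version and settings, how reads were counted or whether strand was used. The columns had no names and were assigned to the group, not to single replicates. The authors' annotation text, per the file headers from their own database, was used after repeated lines were dropped (22605 of 29875 lines left). Of all counts from 1 to 10, 67.2% were even numbers, so mates may have been counted separately, and intervals cover counting error only.

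CPM and RPKM were computed with pandas from the library totals. TMM (edgeR 4.0.16) and DESeq2 1.42.0 size factors were alternatives, rescaled to keep the mean level. Counts of library pairs differed beyond sampling noise (median chi-square per transcript 3.48 to 3.54), so all 3 were kept as separate libraries. Members and lists were chosen with earlier results of these data known. Named transcripts were the members, their isoforms, list transcripts with at least 100 reads, the 2 highest of each neighbouring list with at least 100 reads, and the 4 nearest in pattern, plus 1 malate dehydrogenase transcript chosen later. No sequences of these transcripts were used here.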

Additional observations from a re-analysis of the deposited data

How the results depend on the processing

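No paired analysis was possible because there was 1 group. Scaling by TMM, DESeq2 size factors or counts outside the 2 dominant transcripts cannot change ratios within a library, and mean levels were rescaled to keep the mean, so those values are no sign of stability. Without division by length, the ratio of oxalate decarboxylase to formate dehydrogenase reversed, to 0.797 for the leading members and 0.825 for the classes, as means over the libraries and by construction from their lengths, and malate synthase to isocitrate lyase was 5.96. In CPM, the leading members had 624, 767 and 25.5, and their classes 647, 769 and 72.7, for oxalate decarboxylase, formate dehydrogenase and isocitrate lyase. Neighbouring lists in CPM were 162 for formate and one-carbon units, 64.4 for citrate synthase, 158 for aconitase, 47.8 for isocitrate dehydrogenase, 101 for pyruvate carboxylase, 497 for acetyl-CoA synthetase-like proteins, 1111 for glyoxal oxidase, 0.920 for phosphoglycolate phosphatase and 45.3 for peroxisome names. Malate dehydrogenase, the highest of these lists in RPKM, had 629 CPM and so lay below glyoxal oxidase. Without T. versicolor matches, which removes all 3 leading members, the class sums were 57.3 RPKM for oxalate decarboxylase, 0.962 for formate dehydrogenase and 5.23 for isocitrate lyase. The ratios became 88.0 for oxalate decarboxylase to formate dehydrogenase and 57.3 for malate synthase to isocitrate lyase, and 4 of 6 transcripts passed 2-fold. The matching share over all transcripts without those matches was not computed, so this count has no background. The 4 include both isoforms of DN27962, which may share reads. The lists for formate, isocitrate dehydrogenase, acetyl-CoA synthetase-like and peroxisome names went to 7.52, 5.69, 135 and 9.04 RPKM, and lists holding T. versicolor matches alone had no value. With assembler genes summed, malate dehydrogenase had 521, isocitrate dehydrogenase 17.4, acetyl-CoA synthetase-like proteins 216 and phosphoglycolate phosphatase 7.90. With 1 library left out, which can only keep or lower it, the 2-fold count ran from 3 to 6. That count has no length scaling and already holds a read minimum, so those alternatives gave no separate value. Depth limits the 29 sparsely read transcripts, which had 2 to 86 reads each over the 3 libraries.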
